A study of Mus musculus with 9 samples.

Results

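The fibrous sheath and the outer dense fibers are the structures that surround the axoneme of the mammalian sperm tail. The genes described here are the 8 rows of the deposited count table named Odf1, Odf4, Akap3, Akap4, Fscb, Ropn1, Ropn1l and Spa17, out of 19991 genes in all. They were chosen by name, with earlier results of these data known. All 8 passed the filter on low counts that left 15834 genes for testing.

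The tissue was the testis of ICR mice, an outbred stock, 8 weeks old. One group had received an injection of AZ82 at 1 µM, another an injection of CW069 at 50 µM and the Control group an injection of PBS. AZ82 and CW069 are known here by their code names and, per the series title, served to inhibit KIFC1, a minus-end-directed kinesin. Each group held 3 libraries, and the labels state neither the route and time of injection nor whether libraries came from separate animals, so p-values measure a spread that may be technical in part. Whole testis holds many cell types, so a value of a germ cell gene depends both on how many such cells were present and on how much RNA each held, and these cannot be told apart.

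Outer dense fibers run along the midpiece and principal piece, one beside each microtubule doublet, and stiffen the tail. The fibrous sheath replaces the mitochondrial sheath in the principal piece and acts as a scaffold for protein kinase A, calcium-binding proteins and glycolytic enzymes. Both are built in elongating spermatids, largely from proteins whose genes are active late in spermatogenesis. The scaffold rests on A-kinase anchoring proteins: AKAP4 is its most abundant protein, and AKAP3 organises it and binds the ropporins. ROPN1, ROPN1L and SPA17 carry a docking domain like that of the regulatory subunit of protein kinase A.

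The promoter windows show how alike and how different these genes are at their starts. RefSeq windows of 250 bases before to 50 bases from the gene start (build GRCm38.p6) were found for 7 of the 8 genes. They are shown for 3 genes that share a run of letters (Akap3, Akap4 and Fscb) and for the 2 genes, Odf4 and Ropn1l, whose levels varied least among the Control libraries. The lines run 5′ to 3′ from 100 bases before to 30 bases from the start; capitals mark TGATGTCA, a variant of the cyclic AMP response element, and the GC box GGGCGG or its reverse complement. In order, they are chr6:126852998-126853127 (plus strand), chrX:7067415-7067544 (plus strand), chr12:64474869-64474998 (minus strand), chr11:68927052-68927181 (minus strand) and chr15:31453660-31453789 (minus strand).
Akap3: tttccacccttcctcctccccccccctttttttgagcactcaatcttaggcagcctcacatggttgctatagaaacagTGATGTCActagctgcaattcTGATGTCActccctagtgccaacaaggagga
Akap4: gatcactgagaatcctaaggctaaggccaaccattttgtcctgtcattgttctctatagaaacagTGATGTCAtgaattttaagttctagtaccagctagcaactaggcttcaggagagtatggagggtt
Fscb: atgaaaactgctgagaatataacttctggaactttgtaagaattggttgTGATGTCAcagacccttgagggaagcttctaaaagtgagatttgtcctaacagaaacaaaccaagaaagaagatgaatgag
Odf4: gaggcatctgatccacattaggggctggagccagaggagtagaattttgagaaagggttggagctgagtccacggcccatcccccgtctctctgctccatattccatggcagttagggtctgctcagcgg
Ropn1l: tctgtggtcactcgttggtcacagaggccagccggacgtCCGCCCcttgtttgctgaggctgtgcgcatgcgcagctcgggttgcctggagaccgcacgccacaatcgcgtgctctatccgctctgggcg

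The letters TGATGTCA, on either strand, were in the windows of 3 of the 7 genes, Akap3, Akap4 and Fscb, and in 3.62% of all 32851 windows of that length; this motif was chosen after the sequences were seen. In Akap3 it began 22 bases and again 1 base before the start, so the second copy ran across the start. In Akap4 it began 35 bases before the start of the more upstream of its windows, and in Fscb 51 bases before the start. Akap3 on chromosome 6 and Akap4 on the X chromosome shared the unbroken run ctatagaaacagTGATGTCA, 20 bases long, which no window of any other gene held. The full response element TGACGTCA, found in 1.79% of all windows, its part TGACG, found in 20.8%, and the TATA box TATAAA, found in 13.6%, were in none of the 7 genes' windows. The CCAAT box CCAAT was in 3 genes (Akap3, Akap4 and Fscb; 37.4% of all windows) and the GC box in 2 (Ropn1l and Spa17; 35.7%). The Ropn1l and Spa17 windows held 22 and 24 CpG sites, against 0 in Akap3 and Fscb, 0 and 1 in those of Akap4, 2 in Ropn1 and 3 in Odf4; the median over all windows was 7. These are matches of letters in a window, and binding was not measured. The run of 20 bases was sought as the longest that Akap3 and Akap4 share. Other pairs of genes were not searched in this way, so its absence elsewhere does not set this pair apart.

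The libraries held 13856070 to 18102593 counts, and the 8 genes had 2418 to 39674 counts each per library, so counting error was at most 2.03% of a value. Control 3 stood apart from the other libraries. Its median log2 ratio to the mean of Control 1 and Control 2 was -1.12 over 16 transcripts of elongating spermatids outside the sheath and fibers, with 15 of the 16 at their lowest of all 9 libraries, and 0.00 over all genes tested, of which 18.8% were at their lowest there. Over 15 transcripts of round spermatids, the stage before, it was -0.17, and over 4 red blood cell genes it was -1.14, with 3 of the 4 at their lowest. The 0.00 over all genes follows largely from TMM scaling, which centres most genes. Fold changes of the 8 genes and counts over the lists are given with and without Control 3. This library was singled out after its values were seen, and leaving it out leaves Control 1 and Control 2 alone in their group.

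The levels of these genes placed them among the abundant transcripts of the testis. Together they took 0.611%, 0.651% and 0.680% of all counts in AZ82 1 to 3, 0.622%, 0.580% and 0.644% in CW069 1 to 3, and 0.669%, 0.633% and 0.441% in Control 1 to 3. The 95% Wilson interval, which covers counting error alone, was 0.438% to 0.445% for Control 3, the lowest library, and 0.676% to 0.685% for AZ82 3, the highest. By CPM, the usual count scaled to library size (here with TMM factors), Akap4 ranked 14 of all genes.

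Compared per kb of exon, scaled to the same sum in every library and without TMM factors, Odf1 had the highest level, 2416 ± 548, followed by Ropn1l at 2014 ± 121, Spa17 at 1907 ± 168 and Akap4 at 1767 ± 297 (SD, n = 9 libraries). Then came Akap3 at 937 ± 70.4, Ropn1 at 684 ± 61.6, Odf4 at 566 ± 34.4 and Fscb at 242 ± 29.0. The first 4 were not separated: the ranges of each neighbouring pair overlapped, and Odf1 lay above Ropn1l in 7 of 9 libraries, Ropn1l above Spa17 in 5 of 9 and Spa17 above Akap4 in 7 of 9. Akap4 lay above Akap3 in 9 of 9 libraries, but its value in Control 3 was below the highest Akap3 value. Akap3 and Ropn1 did not overlap, nor did Odf4 and Fscb, while Ropn1 lay above Odf4 in 8 of 9.

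**Figure D1:**
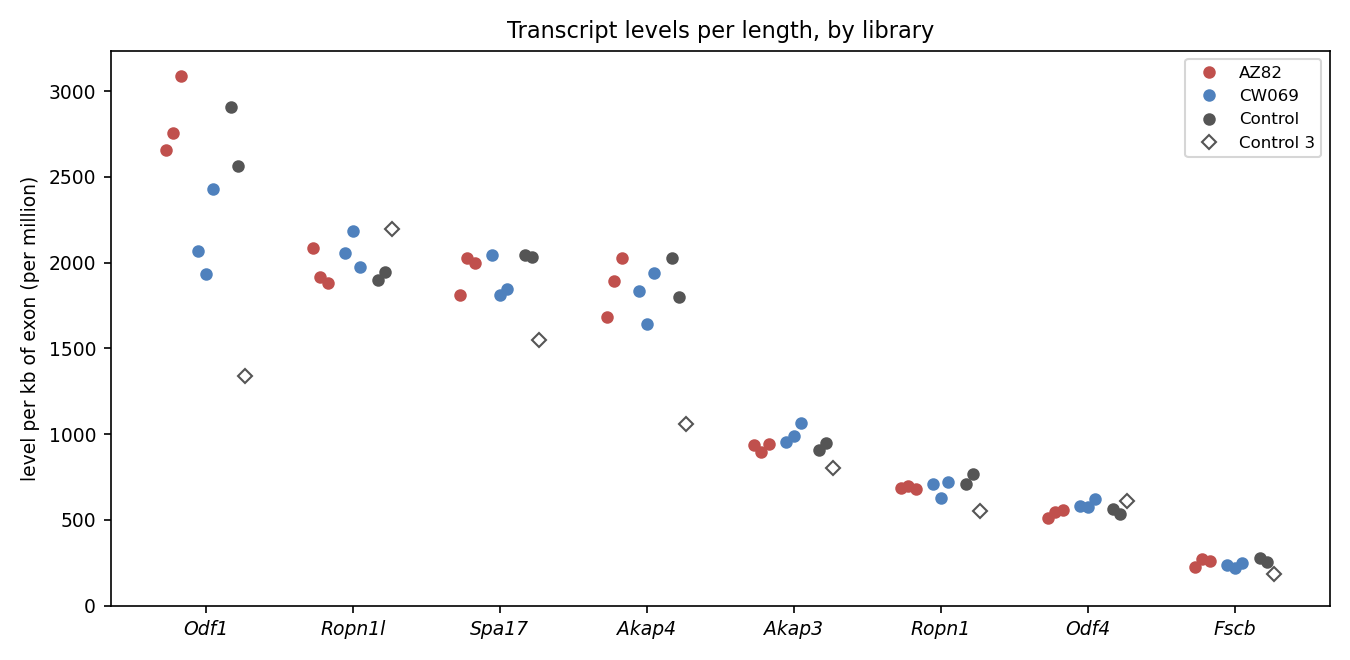
Level of each gene per kb of exon, scaled to the same sum in each library (y axis), with genes ordered by their mean; each point is 1 library, AZ82 in red, CW069 in blue, Control in grey and Control 3 as an open diamond. The 4 genes at the left overlap one another, and Control 3 falls below every other library for Odf1, Spa17 and Akap4. For Ropn1l, Control 3 is the highest of all 9 libraries, at 2194.

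Among the outer dense fiber genes, Odf1 varied most and Odf4 little. Odf1 encodes a cysteine-rich core protein of the fibers, without which mouse sperm heads detach from tails. It had 1137, 1199 and 1339.5 CPM in AZ82 1 to 3, 876, 783 and 1030.1 CPM in CW069 1 to 3, and 1223, 1071 and 494 CPM in Control 1 to 3. Odf4, named as an outer dense fiber protein, had 223, 243 and 245 CPM in AZ82 libraries, 249, 237 and 269 CPM in CW069 libraries, and 240.1, 228 and 228 CPM in Control libraries. Odf1 in Control 3 was thus far under every other library, whereas Odf4 in Control 3 lay beside Control 2.

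The genes of the anchoring proteins, and Fscb, followed Odf1 to differing degrees. Akap4, on the X chromosome, had 1972, 2258 and 2407 CPM in AZ82 libraries, 2129, 1819 and 2253 CPM in CW069 libraries, and 2335, 2054 and 1071 CPM in Control libraries. Akap3 had 1140.5, 1112 and 1169 CPM in AZ82 libraries, 1154, 1141 and 1288 CPM in CW069 libraries, and 1085, 1129 and 845 CPM in Control libraries. Fscb encodes a sheath protein that binds the calcium-binding protein CABYR, and had 292, 358 and 347 CPM in AZ82 libraries, 304, 271 and 323 CPM in CW069 libraries, and 354, 324 and 208 CPM in Control libraries. Each of these genes was at its lowest of 9 libraries in Control 3.

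The genes with a docking domain split. Ropn1 (ropporin) had 232, 239.7 and 234 CPM in AZ82 libraries, 239, 202 and 243 CPM in CW069 libraries, and 236, 253 and 161 CPM in Control libraries. Spa17 had 487, 556 and 545 CPM in AZ82 libraries, 546, 462 and 494 CPM in CW069 libraries, and 541, 534 and 359.8 CPM in Control libraries. Ropn1l, whose protein is also found in axonemal radial spokes, had 772, 723 and 705 CPM in AZ82 libraries, 753, 767 and 725 CPM in CW069 libraries, and 690.2, 703 and 701 CPM in Control libraries. Control 3 held the lowest Ropn1 and Spa17 values of all. In CPM its Ropn1l value fell between those of Control 1 and Control 2. Per kb of exon, without TMM factors, Control 3 instead had the highest Ropn1l value of all 9 libraries. It was at 2194, against 1896 in Control 1 and 1944 in Control 2. Exons of Spa17 overlap those of Siae on the opposite strand, and whether reads were counted by strand is not given in the sources used here; Siae itself was at 19.7 ± 2.03, 23.6 ± 3.52 and 22.8 ± 2.93 CPM in AZ82, CW069 and Control libraries (SD, n = 3 each).

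**Figure D2:**
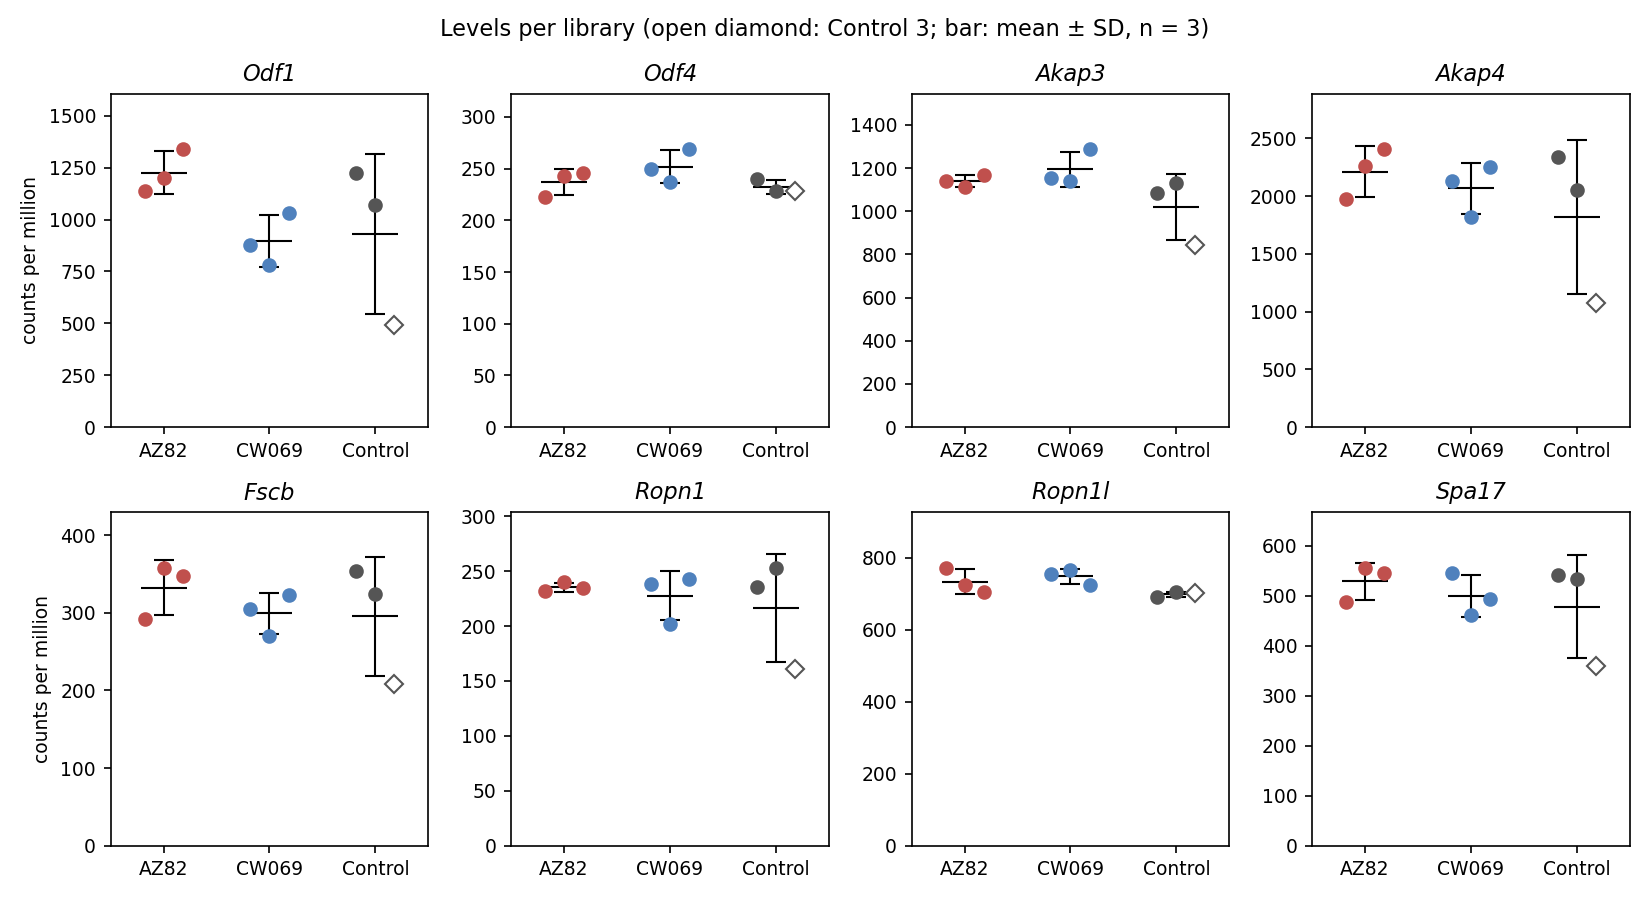
CPM of each gene (y axis, from 0) in the AZ82, CW069 and Control libraries; points are libraries, the open diamond is Control 3, and bars give mean ± SD over 3 libraries. Control 3 is the lowest of 9 libraries in 6 genes and lies with the other Control libraries for Odf4 and Ropn1l.

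The log2 ratio of Control 3 to the mean of Control 1 and Control 2 was -1.21 for Odf1, -1.03 for Akap4, -0.70 for Fscb, -0.60 for Ropn1, -0.58 for Spa17 and -0.39 for Akap3. It was -0.04 for Odf4 and 0.01 for Ropn1l. Ratios of counts within a library need no scaling between libraries, and they show the same split: Akap4 had 1.53 counts per Ropn1l count in Control 3, against 3.38 in Control 1 and 2.92 in Control 2, whereas Odf4 had 0.326 per Ropn1l count in Control 3, against 0.348 and 0.324. As a description of spread, the SD of the Control group in CPM was 41.4% of the mean for Odf1 and 36.4% for Akap4. It was 2.99% for Odf4 and 0.973% for Ropn1l, values that depend on the TMM factors. Per kb of exon, without these factors, the Control libraries had 568 ± 36.3 for Odf4 and 2012 ± 160 for Ropn1l (SD, n = 3).

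Other sheath and fiber genes also differed in this way. Of 14 tested genes on a list of partners, 12 were lower in Control 3 than in both other Control libraries, as were 36.2% of all genes tested, with a median log2 ratio of -0.37. The ratio was -1.26 for Oaz3, which encodes an antizyme of late spermatids, -1.13 for Odf3b and -1.10 for Gapdhs, the sperm glyceraldehyde-3-phosphate dehydrogenase bound to the sheath. Odf2, the other major fiber protein, had -0.58, Tcp11 -0.57, Spag4, a SUN-domain protein that binds ODF1, -0.49, Gstm5 -0.43, Cabyr -0.30, Odf3 -0.28 and Akap14 -0.20. Rhpn1 (-0.05), Odf3l1 (-0.05), Fsip1 (0.02) and Fsip2 (0.04), the last 2 encoding fibrous sheath interacting proteins, were within 0.05 of 0. Protamine transcripts, which mark the latest spermatids, had -1.49 for Prm1 and -1.84 for Prm2.

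**Figure D3:**
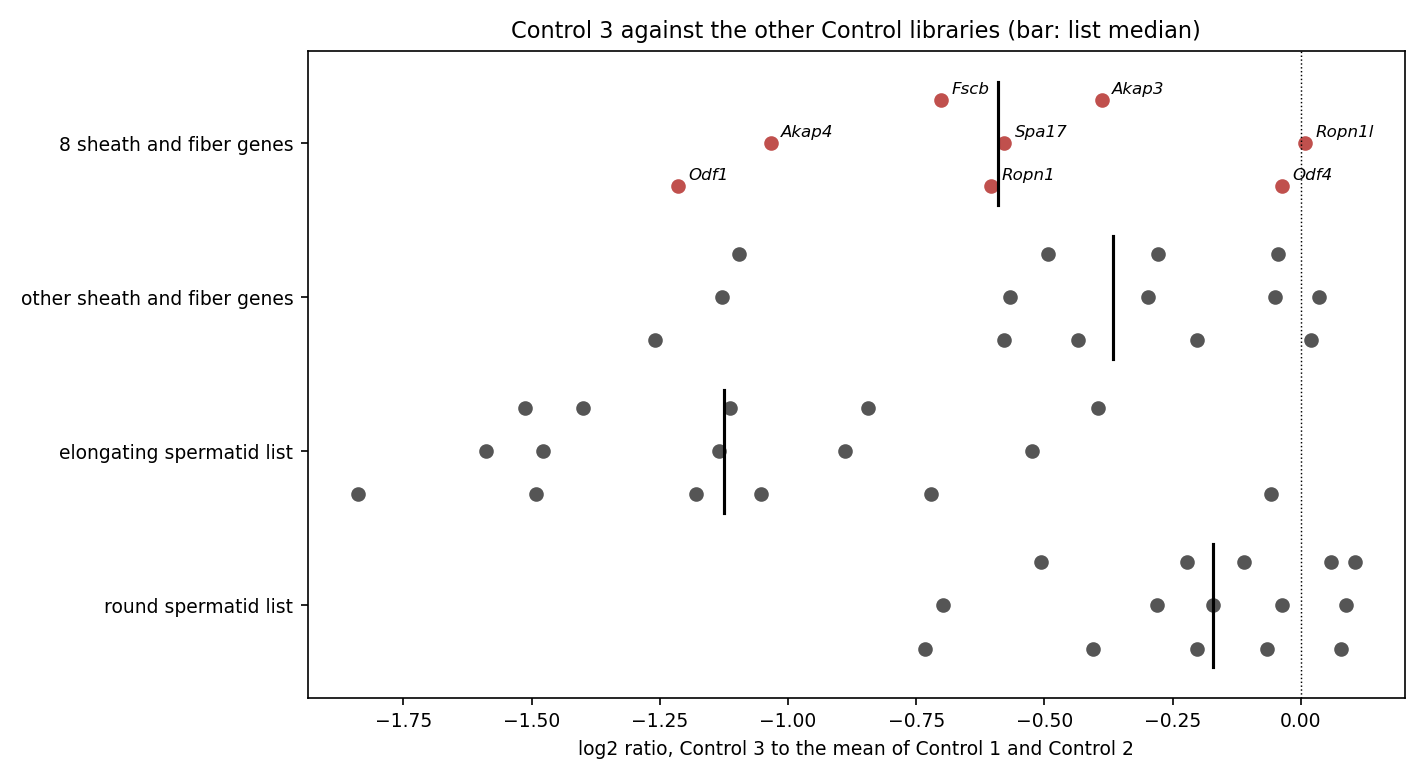
Log2 ratio of Control 3 to the mean of Control 1 and Control 2 (x axis) for the 8 genes (red, named), other sheath and fiber genes, and the elongating and round spermatid lists; points are genes and bars are list medians. The 8 genes run from Odf1 at -1.21 to Ropn1l at 0.01, with a median of -0.59 that lies between those of the elongating (-1.12) and round spermatid lists (-0.17).

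AZ82 against Control asks how expression differed after the first inhibitor. The log2 fold change was above 0 in 8 of the 8 genes with TMM scaling, in 6 of 8 with library size alone and in 1 of 8 when libraries were scaled to the elongating spermatid list. These scalings move all genes together: 49.7% of all genes were above 0 with TMM, 31.2% with library size alone and 3.47% with the spermatid scaling. The median of the 8 was 0.15, against 0.00 over all genes tested. No gene of the 8 passed edgeR's quasi-likelihood test at an adjusted p of 0.05, nor did any of the 15834 genes (0%); at an unadjusted p under 0.05 there were 0 of the 8 and 8.84% of all genes. Ropn1l was the 1 gene of the 8 whose AZ82 libraries lay wholly above the Control libraries, which 6.65% of all genes did. Its nearest libraries were AZ82 3 at 705 CPM and Control 2 at 703 CPM. Their counting errors were 1.01% and 0.956%, so counting error does not set these libraries apart. With library size alone the Ropn1l log2 fold change was -0.0082. Of the 8 genes, 0 lay wholly below, against 8.62% of all genes. Thus 1 of 8 did not overlap in either direction, against 15.3%.

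Odf1 averaged 1225 ± 104 CPM in AZ82 libraries and 929 ± 385 CPM in Control libraries (SD, n = 3 each), a log2 fold change of 0.40 ± 0.26 (SE; 95% interval -0.17 to 0.97; edgeR adjusted p = 0.645). Akap4 averaged 2212 ± 221 CPM in AZ82 libraries and 1820.2 ± 663 CPM in Control libraries, with 0.28 ± 0.23 (-0.22 to 0.78; edgeR adjusted p = 0.702). Fscb had 0.17 ± 0.17, Akap3 0.16 ± 0.10, Spa17 0.15 ± 0.14 and Ropn1 0.12 ± 0.14. The smallest standard errors belonged to Ropn1l, at 0.07 ± 0.06 (733 ± 34.6 against 698 ± 6.79 CPM), and Odf4, at 0.03 ± 0.07 (237 ± 12.3 against 232 ± 6.94 CPM); their 95% intervals reached 0.21 and 0.19.

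Without Control 3 the median of the 8 genes was 0.01, with 5 of 8 above 0 against 49.8% of all genes, and 0 of the 8 at an unadjusted p under 0.05 against 7.81%. Odf1 then had 0.09 (edgeR adjusted p = 0.835), Akap4 0.01, Akap3 0.04, Fscb -0.03, Ropn1 -0.06 and Spa17 -0.02, while Odf4 had 0.02 and Ropn1l 0.07. The elongating spermatid list had 16 of 16 members above 0 with all libraries and 11 of 16 without Control 3. Its summed level was 15032 to 17821 CPM in AZ82 libraries and 6486 to 15970.1 CPM in Control libraries, with none of its genes at 0, and its part in the values of the 8 genes was not tested. Leaving out Control 1 gave 0.65 for Odf1, 0.50 for Akap4 and 0.32 for Fscb, and leaving out Control 2 gave 0.23 for Spa17, 0.24 for Ropn1 and 0.24 for Akap3.

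The second inhibitor, CW069, was set against the same Control libraries. Here 7 of the 8 genes were above 0 with TMM scaling, 6 of 8 with library size alone and 2 of 8 when scaled to the elongating spermatid list, while 49%, 36.3% and 9.88% of all genes were above 0 in the same order. The median of the 8 with TMM was 0.09. None of the 8 was called, and 0% of all genes were; at an unadjusted p under 0.05 there were 0 of the 8 and 7.34% of all genes. The CW069 libraries lay wholly above the Control libraries for Akap3 and Ropn1l, as they did in 6.13% of all genes, and wholly below for 0 of the 8, against 7.24% (13.4% of all genes in either direction). For Akap3 the nearest libraries were CW069 2 at 1141 CPM and Control 2 at 1129 CPM, with counting errors of 0.774% and 0.754%.

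Akap3 averaged 1194 ± 81.1 CPM in CW069 libraries and 1019.6 ± 153 CPM in Control libraries, a log2 fold change of 0.23 ± 0.10 (SE; 95% interval -0.0028 to 0.46; edgeR adjusted p = 0.685). Ropn1l averaged 748 ± 21.4 CPM in CW069 libraries and 698 ± 6.79 CPM in Control libraries, with 0.10 ± 0.06, and Odf4 252 ± 15.8 against 232 ± 6.94 CPM, with 0.12 ± 0.07. Akap4 had 0.18 ± 0.23, Ropn1 0.07 ± 0.14, Spa17 0.07 ± 0.14 and Fscb 0.02 ± 0.17. Odf1 was the gene below 0, at -0.05 ± 0.26 (896 ± 125 against 929 ± 385 CPM; edgeR adjusted p = 0.978), a sign that limma-voom turned (0.04).

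Without Control 3, 3 of the 8 genes were above 0, against 49.1% of all genes, and the median was -0.09. Odf1 then stood at -0.35 ± 0.11 (95% interval -0.60 to -0.11; edgeR adjusted p = 0.400), the 1 gene of the 8 with an unadjusted p under 0.05, which 8.86% of all genes had in that fit. Control 3 held the lowest Odf1 value of all, so leaving it out raises the Control mean and narrows this interval by construction. Fscb had -0.18, Ropn1 -0.10, Spa17 -0.10 and Akap4 -0.09. Akap3 and Ropn1l, at 0.11 and 0.10, and Odf4, at 0.11, stayed above 0. Leaving out Control 1 instead gave 0.20 for Odf1, 0.40 for Akap4, 0.17 for Fscb and 0.16 for Spa17, and leaving out Control 2 gave 0.06 for Odf1 and 0.20 for Ropn1. The elongating spermatid list had 15 of 16 members above 0 with all libraries and 4 of 16 without Control 3; its summed level was 12408 to 14225 CPM in CW069 libraries, against 6486 to 15970.1 CPM in Control libraries, and its part in these values was not tested.

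**Figure D4:**
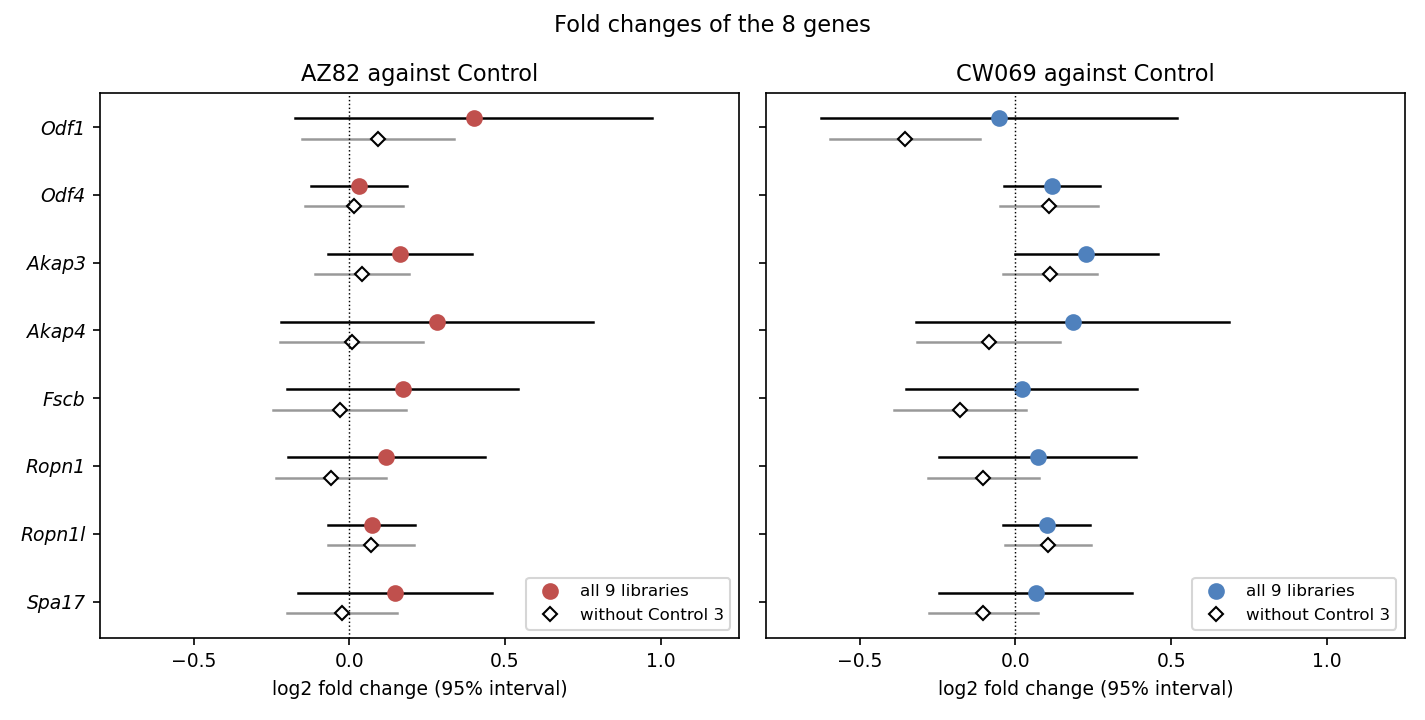
Log2 fold change of each gene (x axis, with 95% interval) for AZ82 against Control and CW069 against Control; filled circles are fits of all 9 libraries and open diamonds fits without Control 3. For Odf1 the 2 fits give 0.40 and 0.09 for AZ82, and -0.05 and -0.35 for CW069, while Ropn1l and Odf4 stay within 0.02.

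Both comparisons share the Control libraries, so their likeness is no separate evidence. CW069 against AZ82 does not use those libraries for its fold change, though the doses differ (50 µM and 1 µM). In that comparison 3 of the 8 genes were above 0 and 5 below (3 above with library size alone and 7 when scaled to the elongating spermatid list). Of all genes, 49.6% were above 0 with TMM, 60.2% with library size alone and 90.8% with the spermatid scaling. The 8 genes had values from -0.45 to 0.09, a median of -0.06 and adjusted p-values of 0.999 in edgeR; 0 of the 8 and 0% of all genes were called, and 4.97% of all genes but 0 of the 8 had an unadjusted p under 0.05. Odf1, named after its values were seen, had the -0.45 (95% interval -1.02 to 0.12), and its CW069 libraries lay wholly below its AZ82 libraries, as in 5.8% of all genes; 0 of the 8 lay wholly above, against 5.52% (11.3% in either direction). Without Control 3, whose spread enters the shared error, Odf1 kept its fold change at -0.45 with a narrower 95% interval of -0.66 to -0.23, and edgeR gave an adjusted p of 0.212. Its unadjusted p was then under 0.05, as it was for 7.3% of all genes, while 3 of the 8 genes were above 0 against 51% of all genes. In the same comparison 14 of 16 elongating spermatid genes and 9 of 14 partners (other sheath and fiber genes) were below 0, with and without Control 3. With all libraries, 9 of the 16 and 5 of the 14 lay wholly below, against 5.8% of all genes. Wholly above lay 0 of the 16 and 1 of the 14, against 5.52%. At an unadjusted edgeR p under 0.05 there were 0 of the 16 and 1 of the 14 with all libraries, against 4.97% of all genes. Leaving out Control 3, whose spread enters the shared error, gave 8 of the 16 and 7 of the 14, against 7.3%. In both fits 0 were called. With TMM scaling, log2 fold changes below 0 were thus not particular to Odf1. Scaled to the elongating spermatid list, 7 of the 8 genes were above 0.

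The wider lists around the sheath gave no call in either comparison with Control (edgeR, adjusted p of 0.05). Of the 14 tested partners, 14 were above 0 after AZ82, with a median of 0.19, and 11 after CW069, with a median of 0.09. Without Control 3, 13 of 14 and 6 of 14 were above 0, with medians of 0.07 and -0.05. With all libraries, 1 of 14 had an unadjusted edgeR p under 0.05 after AZ82, against 8.84% of all genes. After CW069 there were 2 of 14, against 7.34%. Odf2 averaged 4265 ± 113 CPM in AZ82 libraries, 3761 ± 151 CPM in CW069 libraries and 3548 ± 765 CPM in Control libraries. Tcp11, which encodes a testis protein linked to cyclic AMP signalling, averaged 2168 ± 102, 1876 ± 140 and 1757 ± 390 CPM in the same order, and Odf3b 22.2 ± 2.33, 15.8 ± 0.587 and 14.2 ± 5.69 CPM. Odf3b had the largest fold change of the partners after AZ82, 0.64 ± 0.24 (SE; edgeR adjusted p = 0.554), and 0.34 without Control 3.

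Subunits of protein kinase A, the enzyme that the AKAP proteins anchor, had 2 of 7 above 0 after AZ82 and 4 of 7 after CW069, with medians of -0.06 and 0.01; without Control 3 they had 3 of 7 and 4 of 7 above 0, with medians of -0.01 and 0.01. At an unadjusted p under 0.05 there were 3 of 7 after AZ82, against 8.84% of all genes, and 1 of 7 after CW069, against 7.34%, and the 3 are named here after their values were seen. Prkacb, a catalytic subunit, averaged 16.5 ± 0.557 CPM in AZ82 libraries and 20.05 ± 1.29 CPM in Control libraries, a log2 fold change of -0.28 ± 0.09 (SE; edgeR adjusted p = 0.554), and was the 1 such gene after CW069, at -0.20 ± 0.08. Prkx, a related kinase, had -0.31 ± 0.12 and the regulatory subunit Prkar1b 0.39 ± 0.16 after AZ82, at levels of 8.45 to 11.6 CPM in the means of these groups. Without Control 3 the values after AZ82 were -0.31 for Prkacb, -0.38 for Prkx and 0.35 for Prkar1b. The most abundant members of the list were Prkar1a, a regulatory subunit, with log2 fold changes of -0.01 ± 0.06 and 0.01 ± 0.06 for AZ82 and CW069, Prkar2a, the regulatory subunit best known from the sperm tail, with 0.40 ± 0.30 and -0.03 ± 0.30 (0.06 and -0.37 without Control 3), and the catalytic subunit Prkaca, with -0.06 ± 0.10 and 0.01 ± 0.10 (0.04 and 0.12 without Control 3). Radial spoke genes had 15 of 16 above 0 after AZ82 (median 0.10; 14 of 16 and 0.07 without Control 3) and 12 of 16 after CW069 (median 0.03; 9 of 16 and 0.05 without Control 3). Their most abundant members, Rsph1, Cfap206 and Dnajb13, had 0.13 ± 0.19, 0.07 ± 0.07 and 0.21 ± 0.08 for AZ82 (0.06, 0.06 and 0.13 without Control 3). Round spermatid genes had 13 of 15 above 0 after AZ82 (median 0.13) and 11 of 15 after CW069 (median 0.08); without Control 3 these were 14 of 15 (median 0.07) and 9 of 15 (median 0.00).

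By Pearson correlation over the 9 libraries with the mean centred log2 CPM of the 8 genes, the 5 most alike of 14238 other genes were H2bl1, a histone variant gene of late spermatids (r = 0.995), Ccdc54 (0.992), the phosphatase gene Cdc14a (0.991), Ube2j1, which encodes a ubiquitin-conjugating enzyme (0.990), and Fam71d (0.988). These values describe the same libraries and carry no test; without Control 3, over 8 libraries, they were 0.984, 0.942, 0.944, 0.928 and 0.941. H2bl1 averaged 123, 107 and 100.04 CPM in AZ82, CW069 and Control libraries, with 61.5 CPM in Control 3 against 122 and 117 CPM in Control 1 and Control 2.

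The label testis was met by its markers: no gene of the 14 in the spermatocyte list was at 0 in all libraries, with a summed level of 8201 to 8466 CPM in AZ82, 7879.98 to 8435 CPM in CW069 and 7740.02 to 7979 CPM in Control libraries, while 8 genes of epididymal epithelium summed to 5.05 to 5.998, 3.63 to 4.31 and 4.66 to 5.73 CPM. Leydig cell genes summed to 1564 to 1899, 1489.9 to 1557 and 1839.9 to 1972 CPM, and had 9 of 10 below 0 after AZ82 and 10 of 10 after CW069. Spermatogonial genes had 11 of 13 below 0 in each, Sertoli cell genes 12 of 13 and 6 of 13, and macrophage genes 9 of 11 and 10 of 11; red blood cell genes had 3 of 4 and 2 of 4 below 0, and adipocyte genes 0 of 6 and 5 of 6. Without Control 3, red blood cell genes had 4 of 4 below 0 in each comparison, with medians of -0.92 for AZ82 and -0.26 for CW069, against -0.57 and -0.00 with it. Below 0 without Control 3 were 8 of 10 and 9 of 10 Leydig cell genes, 11 of 13 and 10 of 13 spermatogonial, 11 of 13 and 7 of 13 Sertoli cell, 10 of 11 and 10 of 11 macrophage, and 1 of 6 and 6 of 6 adipocyte genes after AZ82 and CW069. The part of these shifts in the values of the sheath and fiber genes was not tested.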

How the data were processed

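RNA of 9 mouse testis samples was made into libraries with a stranded mRNA kit, per the labels' protocols. The authors deposited raw counts per gene; per the submitters' processing notes, Trimmomatic, HISAT2, HTSeq and GRCm39 were used, without settings. Single-library files matched the joint table in 19991 of 19991 genes. The 8 genes and all lists were chosen with earlier results of these data known. Genes were kept with filterByExpr, scaled with TMM and tested with edgeR 4.0.16 (R 4.3.3), 1 coefficient per group over 9 libraries (6 residual degrees of freedom), two-sided, with Benjamini-Hochberg adjustment over 15834 genes; 0 genes had an adjusted p under 0.05 in each comparison, while 1399, 1162 and 787 had an unadjusted p under 0.05 for AZ82 against Control, CW069 against Control and CW069 against AZ82. The fit was tested on simulated data for AZ82 against Control. It called 50.7% of 67 genes changed 1.5-fold, 79.1% of 67 changed 2-fold and 93.8% of 65 changed 4-fold, with 4 false calls among 152. The largest fold change of the 8 genes against Control was 1.32, for Odf1 after AZ82. The lack of a call is therefore no evidence that these genes were unchanged. CPM uses TMM-scaled totals; ratios between libraries add 0.5 CPM. Exon lengths came from GENCODE M21 (GRCm38), found for 95.8% of genes, and promoter windows from RefSeq GRCm38.p6, neither being the build of the counts. Named were the 8 genes, partners, the 3 most abundant members of neighbouring lists and the 5 most alike genes; Prm1 was named after its values were seen. Of 19 partner symbols 15 were in the table. Other settings were RLE factors, library size, scaling to the elongating spermatid list, other filters, DESeq2 1.42.0, limma-voom (limma 3.58.1), a replicate block, the compared groups alone and each library left out. Libraries of a group differed beyond sampling noise (chi-square per degree of freedom 3.05 to 6.44 for pairs without Control 3). For Control 3 it was 25.4 with Control 1 and 21.6 with Control 2.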

Additional observations from a re-analysis of the deposited data

How the results depend on the processing

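None of the 8 genes passed the test under any of the 18 other settings tried in any of the 3 comparisons; the lowest adjusted p against Control was 0.293. Of 288 log2 fold changes against Control under those settings, 260 kept their sign and 28 did not. With library size alone, AZ82 against Control gave -0.048 for Odf4 and -0.0082 for Ropn1l, and CW069 against Control -0.018 for Fscb; limma-voom gave 0.043 for Odf1 after CW069. Scaling to the elongating spermatid list moved the median of all genes to -0.53 for AZ82 and -0.29 for CW069 (0.24 for CW069 against AZ82), and by its construction the 8 genes with it. AZ82 against Control then gave -0.50 for Odf4, -0.31 for Akap3, -0.082 for Akap4, -0.24 for Fscb, -0.31 for Ropn1, -0.47 for Ropn1l and -0.29 for Spa17 (median -0.30, 1 of 8 above 0), all above the shifted median of all genes. CW069 against Control gave -0.17 for Odf4, -0.15 for Fscb, -0.12 for Ropn1, -0.20 for Ropn1l and -0.13 for Spa17 (median -0.14, 2 of 8 above 0), and CW069 against AZ82 a median of 0.17 with 7 of 8 above 0.

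With each library left out in turn, values for AZ82 ran from -0.031 to 0.32 for Fscb, -0.059 to 0.24 for Ropn1 and -0.025 to 0.25 for Spa17, with 5 to 8 of the 8 genes above 0. For CW069 they ran from -0.35 to 0.20 for Odf1, -0.085 to 0.40 for Akap4, -0.18 to 0.17 for Fscb, -0.10 to 0.20 for Ropn1 and -0.10 to 0.16 for Spa17, with 3 to 8 above 0. The low ends are without Control 3, a smaller Control group by construction. Counts of all genes called, 0 with edgeR in each comparison, were 6, 28 and 13 with DESeq2 for AZ82 against Control, CW069 against Control and CW069 against AZ82, and 16, 25 and 16 with the spermatid scaling. They were 1 with limma-voom for AZ82, 1 and 1 with library size alone for AZ82 and CW069, and 8 in the fit of CW069 and AZ82 alone. With a library left out they ran from 0 to 4, 0 to 7 and 0 to 4 in the same order.

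The labels state no pairing of samples by replicate number. Deviations of same-numbered libraries correlated between -0.18 and 0.06 across genes, and those of differently numbered libraries between -0.12 and 0.20. These values, from deviations within small groups, cannot settle whether any samples were paired. With the replicate block Odf1 had 0.44 for AZ82 and -0.01 for CW069, and the block changed no call.

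Counting error was at most 2.03% of a value, and the median spread between 3 libraries of a group was 8.69%. In CPM with TMM factors, the spread was no larger than counting error for Ropn1l in Control libraries (0.973%) and Ropn1 in AZ82 libraries (1.68%). Counting error there was up to 1.00% and 1.77%.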

Other observations

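Odf1 had 0.576, 0.531 and 0.557 counts per Akap4 count in AZ82 1 to 3, 0.412, 0.430 and 0.457 in CW069 1 to 3, and 0.524, 0.521 and 0.461 in Control 1 to 3. This ratio is taken within a library and needs no scaling between libraries. Its counting error was 0.896% to 1.40% of the value, and the nearest libraries of different groups, CW069 3 with Control 3 and AZ82 2 with Control 1, are not set apart by it. The pair was chosen after its values were seen, among 28 pairs of the 8 genes, so the values are a description without a test. It was the 1 pair whose groups did not overlap in all 3 comparisons. For CW069 against AZ82, 10 of the 28 pairs did not overlap, 7 of them with Odf1. For AZ82 and CW069 against Control, 1 and 2 pairs did not overlap.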
